A study of Rattus norvegicus with 12 samples.

Results

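The livers of hypophysectomised ("Hypox") female rats were set against the livers of untreated males, to ask which transcripts stand at the intact male level once the pituitary is gone and which stay apart from it. No array held both RNAs, so the difference was taken through the untreated female liver that each had been hybridised with: the mean log2 ratio of Hypox female (HF) to untreated female (F) minus the mean log2 ratio of untreated male (M) to F. It rests on 4 of the 12 arrays of the series, 2 for HF over F and 2 for M over F, each pair with the dyes exchanged. All animals were Fischer 344 rats of 12 weeks, and every RNA was a pool of 3 to 4 livers, with a different pool of each kind on each array of a pair. The F and M animals are described as untreated and the HF animals had no treatment other than hypophysectomy. The same difference could be read on 4 arrays outside this rule, through the Hypox male (HM) RNA, as HM over M minus HM over HF. The pools on those arrays may be the same ones, so they repeat the hybridisation and not necessarily the animals. The remaining arrays set Hypox males given growth hormone, as a single or as 2 treatments, against HM. They entered only the shared fit.

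Liver of the adult rat differs widely between the sexes, and the pituitary sets much of that difference through growth hormone (GH). Males release GH in pulses with gaps between them, females nearly continuously, and hepatocytes read the pattern through the GH receptor, the kinase JAK2 and the transcription factor STAT5B. Removing the pituitary takes away GH together with prolactin and the drive to the thyroid, adrenal cortex and gonads, so thyroid hormone, glucocorticoid and sex steroid signals fall with it. Steroid and drug metabolising P450s, sulfotransferases and the urinary proteins of the lipocalin family are the classic sex-dependent products of this tissue.

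Between 58.4% and 65.3% of probes were well above background per colour on the 4 arrays. All 10 hepatocyte markers on the list (Alb, Apoa1, Apob, Ttr, Tf, Ahsg, Cps1, Hnf4a, Serpina1 and Ambp) were tested and read well above background on at least 1 channel of HF and of M, so the material carried the transcripts of its labelled tissue. The arrays numbered 1 of the loop of 4 RNAs shared a slide and those numbered 2 shared another, so number, slide and scan cannot be told apart. Where values within a slide are given, they were corrected for the dye effect of the probe, because the 2 comparisons had opposite dyes on each slide. A difference below is a log2 difference, HF minus M, with the standard error (SE) of the limma fit, and a gene was called at an adjusted p under 0.05.

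In all, 2922 probes were called higher in HF than in M and 3092 lower, 24.3% of the 24767 tested. Of these, 343 and 612 differed at least 2-fold, together 3.86% of the probes tested. With 1 brightest probe per named gene, 27.0% of 9365 genes were called, 13.0% higher and 14.0% lower, and the median difference over all genes tested was -0.01. In pools of whole liver, fewer cells of a type and less RNA per cell cannot be told apart. The number called rested on each array: 2080 probes without the first M over F array, 3076 without the second, 2531 without the first HF over F array and 3185 without the second. With arrays centred on the median in place of loess, 103 probes were called, 21 higher and 82 lower, and the median of all probes moved from -0.003 to 0.14. All of these 103 were among the 6014, and of the 101 called genes that the rule for named genes chose, 22 kept their calls with median centring.

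Through HM, 6064 of 26264 probes were called (23.1%), of which those at least 2-fold apart made up 3.61% of the probes tested, and 3560 without the first HM over M array, 3364 without the first HM over HF array and 3270 without the second. Of the 955 probes called at least 2-fold apart through F, all 955 had the same sign through HM and 932 were called there. The difference between the routes was called at 0 of 24589 probes in limma, with 127 (0.516%) at an unadjusted p under 0.05. That share is far under the threshold of 0.05, so the test was conservative and its 0 calls do not show that the routes agree. At 30 probes the routes differed by at least 1 on the log2 scale.

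**Figure D1:**
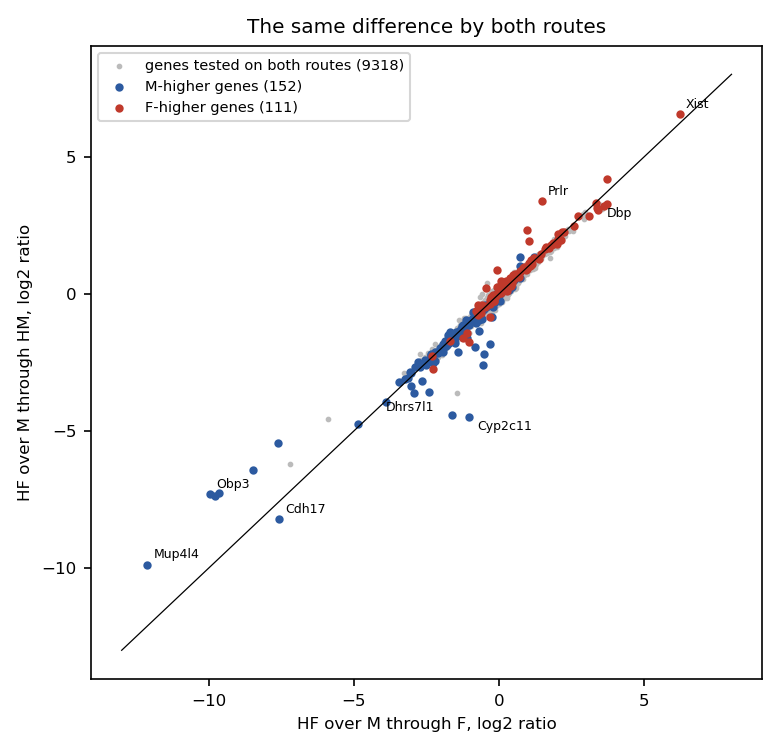
Difference between HF and M per gene through F (horizontal, log2) and through HM (vertical, log2) for 9318 genes tested on both routes, with genes higher in intact M (blue) and in intact F (red) marked and the line of equal values. Most genes lie on the line, while Cyp2c11, Dhrs7l1 and Prlr lie beyond it and the Mup group short of it.

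The genes that already differed between the intact sexes answer most directly whether HF liver reads at the M level. There were 152 genes higher in M and 116 higher in F by at least 2-fold. Because the M over F arrays chose them, their position was taken through HM, on arrays that did not. A gene was placed at the M level where the 95% interval of the difference lay within 2-fold either way, and apart where it was called and at least 2-fold different. Of the 152 M-higher genes 42 (27.6%) were at the M level, 84 (55.3%) apart and 26 undecided. Among all genes tested through HM, 87.7% were at the M level and 4.44% apart. Of the 84 apart, 81 lay below M and 3 above it. Of the 116 F-higher genes 43 (37.1%) were at the M level, 44 (37.9%) apart, 24 undecided and 5 not tested. Of these 44, 38 lay above M and 6 below it. The classes are a description, since M pools may be shared between the arrays that chose the genes and those that placed them.

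**Figure D2:**
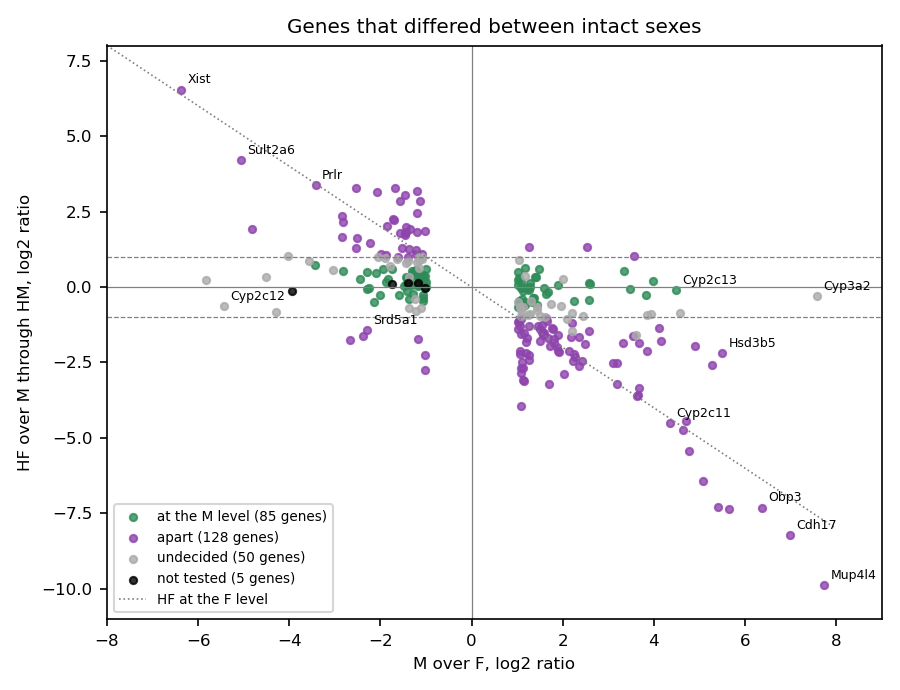
M over F (horizontal, log2) against HF over M through HM (vertical, log2) for the 268 genes that differed at least 2-fold between intact sexes, coloured by class; dashed lines mark 2-fold and the dotted line a HF level equal to F. M-higher genes spread from the M level (Cyp2c13 at -0.09) to far below it (Mup4l4 at -9.88), and F-higher genes from the M level to Xist at 6.54.

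Several male-typical enzymes read close to the M level in HF. Cyp3a2, a steroid 6-beta-hydroxylase of male liver, had log2 ratios to F of 6.87 and 8.02 in HF and 8.77 and 6.41 in M, so the arrays overlapped. Its difference was -0.15 (SE 0.28, adjusted p = 0.739), and -0.30 through HM with a 95% interval from -1.13 to 0.53, just too wide to place it; on that route 1 M spot was left out as outlying. The sign was not settled: it was 0.07 within slide 1 and -0.37 within slide 2. Cyp2c13, another male P450, differed by -0.20 through F and by -0.09 through HM (interval -0.66 to 0.47) against an M over F difference of 4.48. Akr1c3, a hydroxysteroid dehydrogenase of the aldo-keto reductase family, differed by -0.07 through HM (interval -0.41 to 0.27). Hsd11b1, which regenerates active glucocorticoid from its inactive keto form, was within 2-fold of M but called higher in HF, by 0.52 through HM (adjusted p = 0.0186). Cyp2c13, Akr1c3 and Hsd11b1 were singled out after their values were seen.

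The 3 M-higher genes that stood above the M level in HF were Cyp3a18, Spink1 and Acsm3. Cyp3a18, a male-predominant testosterone hydroxylase, exceeded M by 1.02 through HM (SE 0.18) and by 0.72 through F. Spink1, a secreted trypsin inhibitor, exceeded M by 1.34 and 0.73. Acsm3, a medium-chain acyl-CoA synthetase, exceeded M by 1.34 and 1.21. For these genes HF was further from F than intact M was.

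The largest shortfalls in HF were in the major urinary protein group, lipocalins that male rat liver secretes in bulk and that carry odorants in urine. Mup4l4 had log2 ratios to F of -4.39 and -4.38 in HF and 9.19 and 6.28 in M. HF thus lay below F while M lay far above it, and the difference was -12.12 (SE 0.67, adjusted p = 2.48e-05). Obp3, an alpha-2u-globulin of the group, had ratios of -2.92 and -4.21 in HF and 7.73 and 5.04 in M, a difference of -9.95 (SE 0.86, adjusted p = 0.000225). HF was well above background for Obp3 on 1 of its 4 channels, and for Mup4 on 1, so these sizes rest on dim HF spots. Mup4l1, Mup4l3, Mup5 and Mup4 differed by -9.77, -9.65, -8.48 and -7.62. Through HM the 6 differences were smaller in size, from -9.88 for Mup4l4 to -5.43 for Mup4, and all remained called. The members are near-identical copies, so their probes may share RNA and are not separate results.

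The promoter of Obp3 and that of Cyp2c12, the female counterpart described further on, are shown because the genes lie at opposite ends of the intact sex difference and both carry ATTGAT, letters found in sites of the ONECUT factors, of which Onecut1 is higher in female liver. RefSeq sequences of build GRCr8 run from 250 bases before to 50 after the annotated start, with ATTGAT or its reverse complement ATCAAT in capitals. Obp3 (chr5:79640626-79640925, minus strand) has 1 match, starting 183 bases before the start site, and Cyp2c12 (chr1:248676985-248677284, minus strand) has 2, starting 243 and 71 bases before it.
Obp3: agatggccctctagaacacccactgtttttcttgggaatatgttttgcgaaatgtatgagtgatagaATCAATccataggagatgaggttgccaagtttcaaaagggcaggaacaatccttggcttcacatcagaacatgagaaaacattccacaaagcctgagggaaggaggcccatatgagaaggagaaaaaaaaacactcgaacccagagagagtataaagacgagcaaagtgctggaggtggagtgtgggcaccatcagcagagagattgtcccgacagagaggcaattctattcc
Cyp2c12: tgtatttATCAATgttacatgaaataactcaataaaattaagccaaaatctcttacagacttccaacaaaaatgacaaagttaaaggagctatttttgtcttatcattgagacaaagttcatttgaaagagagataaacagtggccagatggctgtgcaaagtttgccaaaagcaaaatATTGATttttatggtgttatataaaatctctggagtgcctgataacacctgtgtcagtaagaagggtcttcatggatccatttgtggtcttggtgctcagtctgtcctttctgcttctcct
The motif was present on either strand in 8.06% of 33469 promoters of this length. A match describes letters only.

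Cdh17, a liver-intestine cadherin, was the M-higher gene outside that group with the largest difference. Its ratios to F were -0.64 and -0.57 in HF and 7.11 and 6.85 in M, and the groups did not overlap. The difference was -7.58 (SE 0.20, adjusted p = 1.23e-06) and -8.22 through HM, and a second probe gave -4.11. A probe annotated to the olfactory receptor gene Or4f7c behaved likewise, with ratios of -0.25 and -0.20 in HF and 4.89 and 4.37 in M and a difference of -4.86 (SE 0.15, adjusted p = 3.14e-06). For both, HF read near F. Chosen after their values were seen, Slc22a8, an organic anion transporter, Pbsn, a lipocalin named probasin, and Stac3 were further M-higher genes called below M in HF, by -3.58, -3.36 and -3.62 through HM and by -2.40, -3.04 and -2.94 through F. Their M over F differences were 3.65, 3.68 and 3.64, and for Slc22a8 the routes differed by more than 2-fold.

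**Figure D3:**
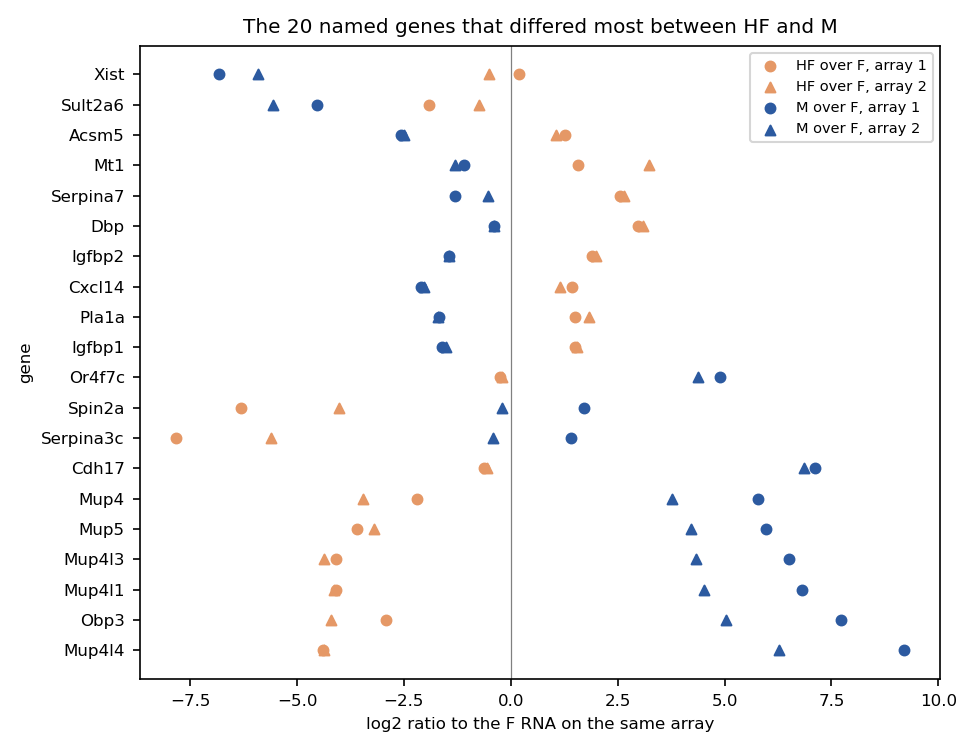
Log2 ratio to the F RNA on the same array for the 10 genes called furthest above and the 10 called furthest below M in HF, with circles for array 1 and triangles for array 2. HF (orange) and M (blue) do not overlap for any of the 20, as their choice required; over all genes tested 60.0% did not overlap.

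In another set of M-higher genes the routes disagreed on how far below M HF lay. Through F, of the genes named here only Dhrs7l1 was called below M (adjusted p = 0.0274). Cyp2c11, named like Dhrs7l1 after its values were seen, is the main male P450, a testosterone 2-alpha- and 16-alpha-hydroxylase. Its ratios to F were 3.55 and 3.10 in HF and 5.22 and 3.51 in M, a difference of -1.04 (SE 0.81, adjusted p = 0.386). Through HM it was -4.51 (interval -6.37 to -2.65), close in size to the M over F difference of 4.37. That route holds no F RNA, so it does not place HF against F directly. On the arrays with F, HF read well above F. Dhrs7l1, a short-chain dehydrogenase, differed by -1.61 through F and by -4.44 through HM. Its M over F difference was 4.70, again close in size to the value through HM, a route without F RNA. Hsd3b5, a 3-ketosteroid reductase of male liver, had ratios of 4.84 and 5.12 in HF and 5.99 and 5.02 in M. It differed by -0.53 (SE 0.29, adjusted p = 0.216) through F and by -2.20 (adjusted p = 0.00167) through HM. For Sult1e1, the estrogen sulfotransferase, the values were -0.56 (adjusted p = 0.401) and -2.60 (adjusted p = 0.00538), and for Hsd3b1 they were -0.83 (adjusted p = 0.0621) and -1.95 (adjusted p = 0.00241). Hsd3b1, Hsd3b5 and Scd2, below, passed with the replicate number as a block, at adjusted p values of 0.0344, 0.0145 and 0.0377.

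Values that went with this disagreement were the levels of the shared RNA. The log2 level of F for Dhrs7l1 averaged 11.45 on the arrays with M and 7.89 on those with HF, for Cyp2c11 14.09 and 10.81, for Hsd3b5 10.79 and 9.02, and for Sult1e1 10.80 and 8.55. The Mup group was not uniform. F for Mup4l4 averaged 11.02 beside M and 12.43 beside HF, while for the other 5 members F read higher beside M, as for Obp3 with 11.67 and 10.45. All 6 read lower in HF beside HM than beside F, from 8.04 to 6.76 for Mup4l4. Over all M-higher genes F read at least 2-fold higher beside M for 12 of 152 and at least 2-fold lower for 1, and over all genes for 13 of 10566 and 7. Of the 9318 genes tested on both routes, 17 differed between them by at least 1 on the log2 scale, and 15 of these were among the 268 sex-differing genes. Why the readings moved with the partner RNA was not tested.

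Female-typical genes divided as well. Akr1b7, an aldo-keto reductase, had ratios to F of -7.32 and -5.23 in HF and -5.48 and -6.17 in M, overlapping, and differed by -0.45 (SE 0.57, adjusted p = 0.603). Cyp2c12, the steroid sulfate 15-beta-hydroxylase of female liver, had ratios of -7.50 and -4.96 in HF and -5.11 and -5.76 in M. It differed by -0.80 (SE 0.56, adjusted p = 0.336), and by -1.87 (adjusted p = 0.027) without the second HF over F array against 0.27 without the first. Sult2a1, a hydroxysteroid sulfotransferase, differed by 0.40 (SE 0.51, adjusted p = 0.606) and Akr1b8 by -0.09 (SE 0.33, adjusted p = 0.872). Through HM Akr1b8 differed by 0.87, of opposite sign (interval 0.11 to 1.63, adjusted p = 0.0961). Scd2, a stearoyl-CoA desaturase, differed by 1.10 (SE 0.37, adjusted p = 0.0662), and 2 other probes by 0.16 and -1.26. Cpa1, a pancreatic carboxypeptidase, differed by -0.22 (SE 1.14, adjusted p = 0.909). It is on the list of pancreas and fat markers, whose median level was 10.67 in F, 8.63 in M, 8.50 in HF and 9.69 in HM. The source of its F signal was not tested, so it is not given as a liver gene. On the brightest probe of each of these genes HF and M both lay below F on every array. The intervals through HM were too wide to place Akr1b7, Cyp2c12, Sult2a1 and Akr1b8 at the M level, and Cpa1 was not tested there. Scd2 differed through HM by 1.03 (interval 0.17 to 1.90, adjusted p = 0.0824), more than 2-fold above M but not called.

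A1bg, a secreted immunoglobulin-fold glycoprotein, had ratios to F of -5.50 and -3.71 in HF and -3.87 and -4.72 in M and differed by -0.31 (SE 0.46, adjusted p = 0.664). Its M level averaged 12.54 beside F and 7.02 beside HM, and its HF level 12.29 beside F and 6.24 beside HM, while F stayed at 16.83 and 16.90. For Akr1b7 the M level was 11.27 beside F and 6.36 beside HM. Both RNAs thus read lower beside HM than beside F. The cause was not tested. Smaller female-typical genes could be placed at the M level: Cyp3a9, a female-predominant P450, differed by -0.26 through HM (interval -0.83 to 0.32), Prom1 by 0.26 and Abcb1a, a drug efflux pump, by 0.28. Lifr, the leukaemia inhibitory factor receptor, and Ifi47, an interferon-inducible GTPase, were within 2-fold of M but called higher in HF through HM, by 0.48 and 0.72. These 5 were named after their values were seen.

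**Figure D4:**
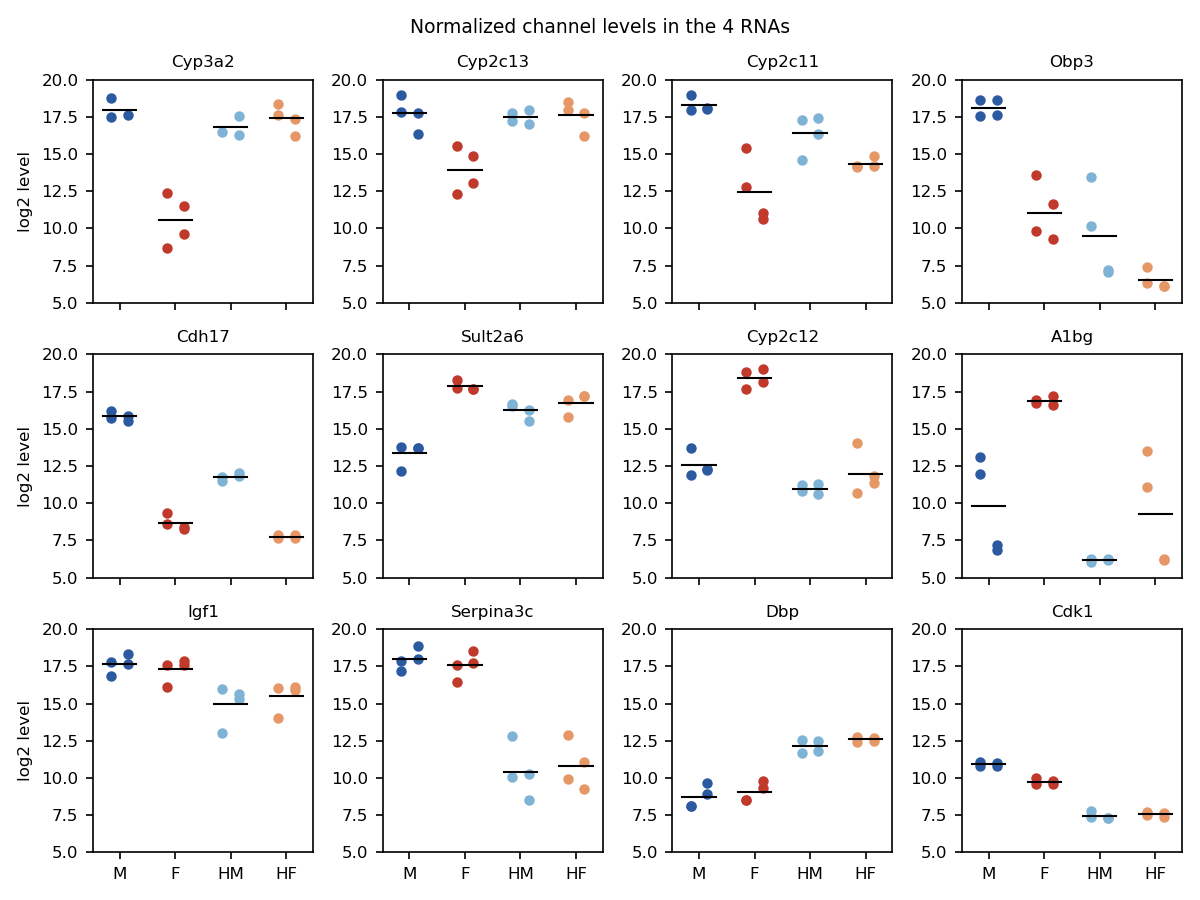
Log2 channel levels after loess and between-array Aquantile normalization for 12 genes. The RNAs are untreated male (M), untreated female (F), Hypox male (HM) and Hypox female (HF). Each RNA has 4 channels (3 for M in Cyp3a2, where an outlying spot was left out), with its mean as a line. Points left of centre come from 1 comparison and points right of centre from the other. Cyp3a2 and Cyp2c13 in HF lie with M, Obp3 and Cdh17 far below it, and the M and HF points of A1bg split by partner.

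The F-higher genes that stayed above M were led by Xist, the RNA that coats the inactive X chromosome. Its ratios to F were 0.19 and -0.51 in HF and -6.84 and -5.91 in M, a difference of 6.21 (SE 0.29, adjusted p = 1.15e-05). HF read near F, the RNA of its own sex. The only gene named on the Y chromosome, Tspy1, was not tested. Sult2a6, a bile acid and hydroxysteroid sulfotransferase, had ratios of -1.91 and -0.74 in HF and -4.54 and -5.57 in M, and differed by 3.73 (SE 0.32, adjusted p = 0.000216) and 4.20 through HM. HF was below F yet 13.2-fold above M.

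Cux2, a repressor of male-typical genes in female liver, had ratios of -3.97 and -3.60 in HF and -5.01 and -4.63 in M. It differed by 1.03 (SE 0.18, adjusted p = 0.00613) and by 1.92 through HM, with an adjusted p of 0.0635 when the first M over F array was left out, and a dimmer probe that was not tested gave -0.09. Prlr, the prolactin receptor, had ratios of -1.99 and -1.92 in HF and -3.24 and -3.60 in M. Its difference was 1.47 (SE 0.28, adjusted p = 0.00754) through F and 3.38 through HM. The M level of Prlr averaged 10.15 beside F and 7.53 beside HM. It lost its call without the second M over F array and without the second HF over F array, at adjusted p values of up to 0.0594.

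Among the 38 genes above M were also several whose HF level exceeded F. Acsm5, a medium-chain acyl-CoA synthetase, had ratios of 1.27 and 1.07 in HF and -2.58 and -2.51 in M, a difference of 3.71 (SE 0.24, adjusted p = 4.56e-05). Cxcl14, a chemokine, had 1.43 and 1.15 in HF and -2.11 and -2.02 in M, a difference of 3.35 (SE 0.18, adjusted p = 2.46e-05). Pla1a, a phosphatidylserine phospholipase, had 1.51 and 1.83 in HF and -1.67 and -1.69 in M, a difference of 3.35 (SE 0.26, adjusted p = 0.000135). In all 3, HF lay above F and M below it. Named after their values were seen, fatty acid translocase Cd36, flavin monooxygenase Fmo5 and the alcohol dehydrogenase Adh1c were F-higher and above M in HF by 2.16, 1.78 and 1.72 through HM.

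The 6 F-higher genes called below M through HM were Onecut1, Ddhd1, Srd5a1, Hsd11b2, Fabp5 and Cavin3. Srd5a1, steroid 5-alpha-reductase, had ratios to F of -3.72 and -3.14 in HF and -2.09 and -2.52 in M, a difference of -1.12 (SE 0.27, adjusted p = 0.0201) and -1.43 through HM. It lost its call without the first M over F array and without the first HF over F array, at adjusted p values of up to 0.159. Onecut1, a hepatocyte transcription factor also known as HNF6, differed by -1.76 through HM (adjusted p = 0.0165) and by -1.04 through F, where it was not called (adjusted p = 0.0947). Hsd11b2, which inactivates glucocorticoid, differed by -1.71, the fatty acid binding protein Fabp5 by -2.25 and the caveolar protein Cavin3 by -2.75. Ddhd1, a phospholipase, differed by -1.63 through HM and by -1.24 through F, where it was not called (adjusted p = 0.061).

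Over all genes tested 14.0% were called lower and 13.0% higher, shares to hold beside the list counts from here on. The list of male-biased liver genes had 10 of 26 tested genes lower and 4 higher in HF, with a median of -0.39 against -0.01 for all genes. Through HM 14 were lower and 4 higher, with a median of -1.10. The higher genes included Hsd17b2, an estradiol-oxidising dehydrogenase, at 2.57. Hsd17b2 was not among the 152 genes placed as higher in intact M on these arrays. In the female-biased list 9 of 24 were higher and 1 lower, with a median of 0.42. Cyp17a1, the 17-alpha-hydroxylase of steroid synthesis, was its member with the second largest difference. It had ratios to F of 2.74 and 3.34 in HF and 1.07 and 0.85 in M, a difference of 2.08 (SE 0.25, adjusted p = 0.00115). On these arrays it thus read higher in M than in F, against the label of the list.

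Several GH-dependent genes that differed little between the intact sexes were far lower in HF. In the list of GH and STAT5-linked targets 10 of 21 were lower in HF and 3 higher, median -0.75. The 3 higher calls became 0 without either M over F array or the first HF over F array and 1 without the second. Serpina3c, a GH-dependent serine protease inhibitor, had ratios to F of -7.83 and -5.62 in HF and 1.40 and -0.41 in M, a difference of -7.22 (SE 0.46, adjusted p = 4.57e-05). Spin2a, a serine protease inhibitor of the same cluster, had -6.31 and -4.01 in HF and 1.71 and -0.21 in M, a difference of -5.91 (SE 0.69, adjusted p = 0.000932). These serpins are close relatives, and their probes may share RNA. Gadd45g, a stress-response gene, differed by -2.60 (SE 0.36, adjusted p = 0.00222).

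Of the IGF axis, through which GH drives body growth, 4 of 13 members were lower and 3 higher. Igf1, the hormone itself, had ratios to F of -3.56 and -1.87 in HF and 1.63 and -0.70 in M. Its difference was -3.18 (SE 0.63, adjusted p = 0.00936), with an adjusted p of up to 0.0887 without the first M over F or the first HF over F array. The other Igf1 probes gave -1.99, -2.22 and -3.12. Without the first M over F array 2 members of the list were called lower. Igfals, the acid-labile subunit that stabilises circulating IGF1, differed by -2.26 (SE 0.34, adjusted p = 0.00305). The binding proteins went both ways. Igfbp2 had ratios of 1.90 and 1.99 in HF and -1.45 and -1.45 in M, a difference of 3.40 (SE 0.38, adjusted p = 0.000761). Igfbp1, which insulin represses, had 1.50 and 1.54 in HF and -1.60 and -1.52 in M, a difference of 3.08 (SE 0.29, adjusted p = 0.000326), while Igfbp3 was lower by 1.52.

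In the JAK-STAT list 7 of 27 members were higher and 5 lower, with a median of 0.12. The higher calls numbered 2 and 1 without the first and second M over F arrays and 2 without either HF over F array. The feedback inhibitors that STAT5 induces were among the lower ones. Cish, the cytokine-inducible SH2 protein, had ratios to F of -0.26 and -0.11 in HF and 2.03 and 1.79 in M, a difference of -2.10 (SE 0.12, adjusted p = 2.48e-05), so HF stood with F and below M. Socs2, a feedback inhibitor of the GH receptor, had -2.14 and -2.09 in HF and 0.27 and -0.48 in M, a difference of -2.01 (SE 0.19, adjusted p = 0.000318), with HF below both intact sexes. Stat5a differed by -1.28 (SE 0.20, adjusted p = 0.00367) and Stat5b by -0.64. The GH receptor Ghr differed by -0.23 and was not called.

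The Cish promoter is shown because the gene separates M from both F and HF, and A1bg's because M and HF both lay far below F. Capitals mark TTCNNNGAA, the palindrome that STAT factors bind, which reads the same on both strands. Cish (chr8:116850719-116851018, plus strand) has 4 matches, starting 241, 230, 136 and 119 bases before the start site, and A1bg (chr7:94387447-94387746, minus strand) has 1, starting 69 bases before it.
Cish: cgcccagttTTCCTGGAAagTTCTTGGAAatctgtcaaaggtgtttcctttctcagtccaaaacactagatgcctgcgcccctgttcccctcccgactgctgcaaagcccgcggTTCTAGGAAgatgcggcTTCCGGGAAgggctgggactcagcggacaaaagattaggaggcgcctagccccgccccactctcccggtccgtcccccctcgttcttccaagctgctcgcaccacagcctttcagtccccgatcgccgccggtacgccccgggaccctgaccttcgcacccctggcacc
A1bg: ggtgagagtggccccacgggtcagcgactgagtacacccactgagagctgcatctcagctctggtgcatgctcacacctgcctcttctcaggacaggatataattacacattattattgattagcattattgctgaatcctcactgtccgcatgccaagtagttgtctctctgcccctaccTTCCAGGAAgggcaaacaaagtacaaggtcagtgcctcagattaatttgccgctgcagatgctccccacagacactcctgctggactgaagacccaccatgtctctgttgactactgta
The A1bg window also holds ATTGAT, left in lower case. In all 8.87% of 33469 promoters of this length held TTCNNNGAA, and 2, Cish among them, held at least as many as Cish. Of the 112 named genes 91 had a promoter in the table, of which 9 (9.89%) held TTCNNNGAA and 13 (14.29%) ATTGAT.

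Cell cycle genes formed the list with the most members lower in HF, 19 of 28 and none higher, with a median of -0.99; 7 were lower with median centring. It was -0.92 within slide 1 and -0.94 within slide 2, and -0.97 through HM. Cdk1, the kinase that starts mitosis, had ratios to F of -1.85 and -2.32 in HF and 1.24 and 1.08 in M, a difference of -3.25 (SE 0.16, adjusted p = 1.28e-05). Rrm2, the ribonucleotide reductase subunit that supplies DNA precursors, had -1.37 and -2.14 in HF and 1.69 and 1.72 in M, a difference of -3.46 (SE 0.23, adjusted p = 5.6e-05). Cyclins Ccnb1 and Ccna2 differed by -2.90 and -2.68. Dimmer probes of Rrm2 and Ccna2 gave -1.21 and -1.42. In each, M stood above F and HF below it. Replication licensing genes moved little, with Mcm2, Mcm4 and Mcm7 between -0.15 and 0.01 and none called.

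**Figure D5:**
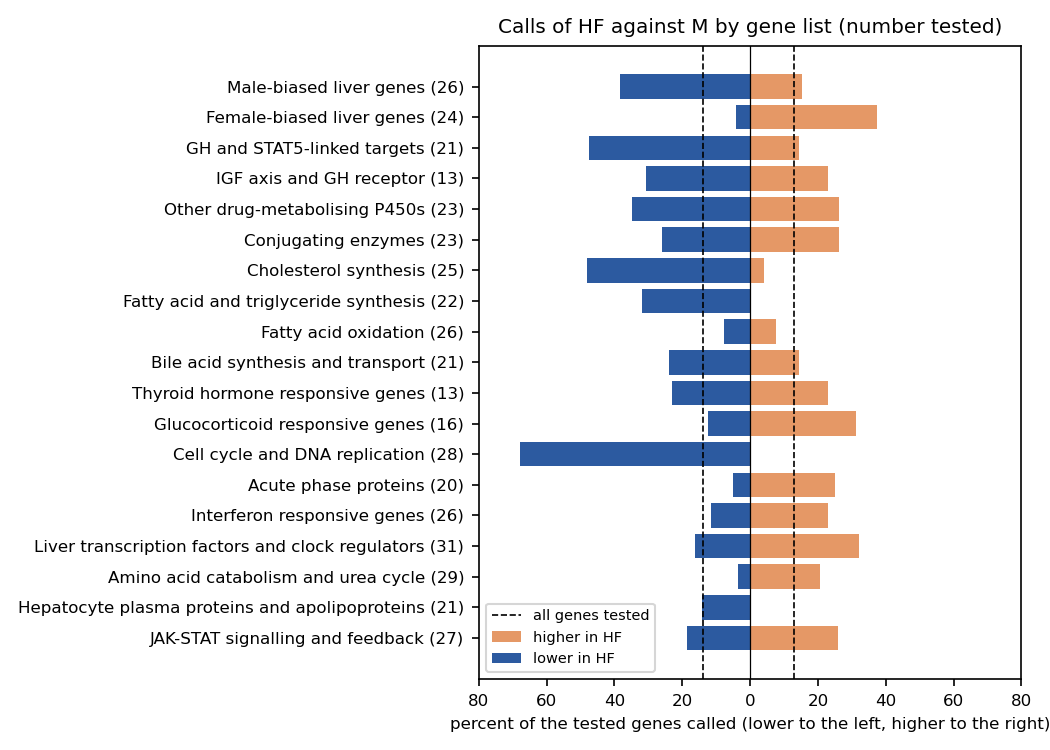
Percent of the tested genes of each list called lower in HF than in M (blue, to the left) or higher (orange, to the right), with the number tested in brackets and dashed lines for all 9365 genes (14.0% lower, 13.0% higher). The longest bar is that of the cell cycle list, with 19 of 28 genes lower.

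In fatty acid and triglyceride synthesis 7 of 22 genes were lower and 0 higher, with a median of -0.85 (-0.63 with median centring). The lower calls numbered 3 without the second M over F array and 3 without the first HF over F array. Me1, the malic enzyme that supplies NADPH, had ratios to F of -2.74 and -2.90 in HF and -0.54 and -0.56 in M, a difference of -2.27 (SE 0.17, adjusted p = 8.77e-05). Mlxipl, the glucose-sensing factor ChREBP, differed by -1.52 (SE 0.21, adjusted p = 0.00201). Elovl5 and Fads1, which lengthen and desaturate fatty acids, differed by -1.57 and -1.50, but both lost their calls without single arrays, at adjusted p values of up to 0.163 and 0.104. Stearoyl-CoA desaturase Scd at -3.36 and fatty acid synthase Fasn at -2.16 were not called.

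Cholesterol synthesis had 12 of 25 genes lower and 1 higher, with a median of -0.54. Dhcr7 differed by -1.34 (SE 0.23, adjusted p = 0.00539, and 0.0509 without the first HF over F array), Fdps by -1.02 (SE 0.23, adjusted p = 0.0139, up to 0.0961 without single arrays) and the sterol sensor Insig1 by -1.71 (SE 0.47, adjusted p = 0.0322). The count of lower genes ranged with the arrays, from 3 without the first HF over F array to 12 without the second, and was 5 and 4 without the first and second M over F arrays and 7 with the replicate block, in which Insig1 lost its call (adjusted p = 0.0539). Fatty acid oxidation had 2 of 26 genes higher and 2 lower and a median of -0.01 (0.18 with median centring). Both counts lay under the shares of all genes, 13.0% higher and 14.0% lower. Ehhadh and Ech1, peroxisomal and mitochondrial enzymes of beta-oxidation, were higher by 1.09 and 1.03, and the binding protein Fabp1 lower by 1.58 with an adjusted p of up to 0.105 without single arrays.

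Plasma apolipoproteins contributed the largest differences in the list of hepatocyte secretory products, in which 3 of 21 were lower and 0 higher. The lower calls were near the share of all genes called lower (14.0%), so the count says nothing particular about the list. Without the first and second M over F arrays 0 and 1 were lower, and without the first and second HF over F arrays 0 and 1. Apoa4 differed by -3.29 (SE 0.88, adjusted p = 0.0293) and Apoa1, the main protein of high-density lipoprotein, by -2.14 (SE 0.56, adjusted p = 0.0277). Both lost their calls when single arrays were left out, with adjusted p values of up to 0.19 and 0.208. Apoa5 differed by -0.51 (adjusted p = 0.032) and was not called with the replicate block (adjusted p = 0.0511). Alb, albumin, differed by 0.26 and was not called, with the first M over F array left out for an outlying spot.

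In transport and bile acid handling, 5 of 21 genes were lower and 3 higher, against 14.0% and 13.0% of all genes. Without the first M over F array or the first HF over F array 3 were lower. Abcc2, the canalicular conjugate pump, had ratios to F of -2.21 and -2.23 in HF and 0.08 and -0.15 in M, a difference of -2.18 (SE 0.09, adjusted p = 9e-06). Abcc3, the basolateral conjugate pump, went the other way, with 0.37 and 0.55 in HF and -1.70 and -1.72 in M and a difference of 2.17 (SE 0.09, adjusted p = 9e-06). Slco1a4, an organic anion uptake carrier, was higher by 1.30 with an adjusted p of up to 0.139 without single arrays, and the bile acid reductase Akr1d1 by 1.07 (SE 0.17, adjusted p = 0.00343). Cyp7a1, the rate-limiting enzyme of bile acid synthesis, differed by -0.69 and was not called.

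Drug-metabolising enzymes changed in both directions. Of the other P450s 8 of 23 were lower and 6 higher, with a median of -0.09 (0.13 with median centring). The higher calls numbered 3 without any of the 4 arrays in turn, and the lower calls 5 without the first M over F array. Cyp1a1, an aryl hydrocarbon receptor target, had ratios to F of 2.92 and 1.14 in HF and -1.33 and -0.43 in M, a difference of 2.91 (SE 0.35, adjusted p = 0.00109). Cyp2e1, the ethanol-inducible P450, was higher by 1.36 (SE 0.12, adjusted p = 0.000277) after the dye term, although its uncorrected arrays overlapped, with -0.38 and 1.58 in HF and 0.11 and -1.63 in M. It lost its call without the dye term. Cyp2j3 was lower by 1.39. Of the conjugating enzymes 6 of 23 were higher and 6 lower (3 lower without the first M over F array or either HF over F array), with the bilirubin glucuronosyltransferase Ugt1a1 at 1.54 (SE 0.16, adjusted p = 0.000623), Gstm7 at 1.38, Ugt2a3 at -1.53 and the phenol sulfotransferase Sult1a1 at -1.20.

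Thyroid hormone responsive genes had 3 of 13 members lower and 3 higher, against 14.0% and 13.0% of all genes. Without the first M over F array 1 was higher. Dio1, the deiodinase that activates thyroxine and is itself a thyroid hormone target, had ratios to F of -1.43 and -1.18 in HF and 1.29 and 1.22 in M, a difference of -2.55 (SE 0.11, adjusted p = 9.23e-06). Serpina7, thyroxine-binding globulin, had 2.55 and 2.64 in HF and -1.31 and -0.54 in M, a difference of 3.52 (SE 0.50, adjusted p = 0.00236). The iodothyronine and aromatic amino acid carrier Slc16a10 was higher by 1.85, with an adjusted p of up to 0.0849 without single arrays. Glucocorticoid responsive genes had 5 of 16 higher and 2 lower, with 2 higher without the first M over F array and 3 without the second HF over F array. Mt1, metallothionein, had 1.56 and 3.23 in HF and -1.10 and -1.31 in M, a difference of 3.60 (SE 0.44, adjusted p = 0.00115), and a second probe gave 2.09 (adjusted p = 0.137). G6pc1, the glucose-6-phosphatase of gluconeogenesis, differed by -1.70 (SE 0.27, adjusted p = 0.00411) and the kinase Sgk1 by -1.05, with an adjusted p of up to 0.0881 without single arrays.

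Of the liver transcription factors and clock regulators 10 of 31 were higher and 5 lower. The higher calls numbered 4 without the first M over F array and 6 without each other array, and the lower calls 0 without either M over F array or the first HF over F array and 3 without the second. Dbp, a clock-controlled bZIP activator, had ratios to F of 2.98 and 3.10 in HF and -0.39 and -0.40 in M, a difference of 3.43 (SE 0.21, adjusted p = 3.74e-05). Bhlhe41, a clock repressor, had 2.77 and 2.44 in HF and -0.50 and -0.10 in M, a difference of 2.90 (SE 0.35, adjusted p = 0.00117). The nuclear receptors Nr1d1 and Nr1d2 were higher by 1.77 and 1.48, Nr1d2 with an adjusted p of 0.0522 without the first M over F array, and Bmal1, the activator of the clock loop, was lower by 1.39. The labels name no time of day for the killing of the animals, and its part in the result was not tested.

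In the acute phase list 5 of 20 genes were higher and 1 lower, with 2 higher without the first M over F array and 3 without the first HF over F array. Hamp, hepcidin, was higher by 1.90 (SE 0.37, adjusted p = 0.00846, and up to 0.0758 without single arrays), and Saa4, a constitutive serum amyloid, lower by 1.74 (adjusted p up to 0.0884 without single arrays). Interferon responsive genes had 6 of 26 higher and 3 lower (1 lower without either M over F array or the first HF over F array), led by Isg20 at 1.20 (SE 0.08, adjusted p = 5.89e-05). Amino acid catabolism had 6 of 29 higher and 1 lower, with a median of -0.01 (0.23 with median centring), and 3 higher without the first M over F array. Kmo, the kynurenine monooxygenase, was higher by 1.07 (SE 0.12, adjusted p = 0.00069) and Hal, histidine ammonia-lyase, by 0.86 (SE 0.13, adjusted p = 0.00294). Tat was higher by 0.78, with an adjusted p of 0.0642 without the first M over F array.

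Markers of the other liver cell types were called to differing extents. Of all genes 13.0% were called higher and 14.0% lower, and short lists with counts near these shares say little about a cell type. Of macrophage markers 7 of 11 were higher and 1 lower, median 0.35, led by Cd14 at 1.26 (SE 0.13, adjusted p = 0.000508), and their mean level over the list ran from 12.63 to 12.72 in HF and from 12.27 to 12.32 in M over 4 channels each. The 7 calls became 3 without the first M over F array and 4 without each other array. Endothelial markers were higher for 5 of 9, median 0.38, with mean levels of 10.70 to 10.74 in HF and 10.13 to 10.44 in M. Of these, Fcgr2b, Kdr and Lyve1 lost their calls without the dye term. Second probes of Lyve1 and Tek gave 0.22 and 0.24, not called, against 0.57 and 0.62 on the brightest. Among macrophage markers a second probe of Csf1r gave 0.005, not called, against 0.49, while that of Cd14 gave 1.11 and was called. Lymphocyte markers were higher for 7 of 13, median 0.46, with mean levels of 7.89 to 7.95 and 7.50 to 7.55, and 1 of them was never above background in M. The 7 calls became 2 and 4 without the first and second M over F arrays and 3 without either HF over F array. Bile duct markers were higher for 2 of 8, median 0.41, led by Epcam at 1.96 (SE 0.20, adjusted p = 0.00058). Stellate markers had 2 of 9 lower and 1 higher, erythroid markers 2 of 5 lower with Hbb at -1.68 (adjusted p up to 0.0827 without single arrays), and pancreas and fat markers 0 of 8 called. Hepatocyte markers had 2 of 10 lower and 1 higher. The part of cell makeup in the other results was not tested.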

How the data were processed

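Per the file headers, the deposited scanner files hold mean and local background intensity for 45018 spots in both colours, read with Agilent Feature Extraction 9.1.3.1, together with processed signals and a log10 ratio (red over green). Other deposited columns are flags for spots well above background, saturated (none here) or outlying. The authors' deposited values are log2 ratios, channel 2 over channel 1, with a slope of 1 on the scanner ratio; array medians ran from -0.11 to 0.13 and their centring is unknown.

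Intensities were corrected with normexp (offset 50) and loess in limma 3.58.1 under R 4.3.3. The 1639 control spots were given weight 0, outlying ones likewise before their removal. Spots of a probe were averaged (41012 probes). For arrays their number limits the precision. A model with 6 comparisons and a dye term was fitted to all 12 arrays (residual degrees of freedom 5, prior 3.08). All comparisons, those of GH-treated Hypox males included, thus share 1 estimate of the spread. P-values measure only the spread between these pools and arrays and were adjusted by Benjamini-Hochberg over the probes tested. A probe was tested where HF or M was well above background on both of its arrays. Levels are per channel after loess and Aquantile. The pipeline was tested on simulated data.

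Symbols came from RefSeq (build GRCr8) by accession (10735 probes), symbol (5535) or synonym (1042), and 23696 probes stayed unnamed; the brightest probe stood for a gene (13384 genes). Named genes were the 10 called furthest each way in HF over M without overlap of arrays and in M over F, and up to 4 called members of each list; list members outside these were named for their role with their values known, and sex-differing genes where the report says so. The members and lists were chosen with earlier results of these data known. Dye-corrected deviations of same-numbered HF over F and M over F arrays correlated at 0.394 over 24752 probes. The number marks the slide, per the file headers, so it was taken as a pairing and fitted as a block in an alternative fit. The main fit has no block, so its SEs and p-values leave this pairing out. Alternatives were median centring, processed signals, the value table, other filters, blocks, array sets and left-out arrays. The values of 1 gene of the cholesterol synthesis list are not reported here.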

Additional observations from a re-analysis of the deposited data

How the results depend on the processing

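Calls through F and through HM numbered 6014 and 6064 probes. With median centring they were 103 and 107, without the dye term 3686 and 3565, and with the joint fit of 4 RNAs 10949 through F. With only the 8 arrays without GH treatment they were 4554 and 4512. That fit ended the calls of 6 named genes, Srd5a1 and Apoa4 among them. Leaving out single arrays of each route gave 2080 to 3185 through F and 3270 to 7274 through HM, and leaving single HM arrays out of the shared fit gave 5779 or 7394 through F. The replicate block changed neither count beyond 1.5 times (5208 and 5222), and of 101 named genes called it ended the calls of 3, Apoa5, Cpt2 and Insig1. Median centring placed 1 M-higher gene at the M level and 17 apart, and 9 and 4 F-higher genes, among 68 and 52 genes chosen in that setting. Processed signals put 77 F-higher genes apart among 175 chosen, and the authors' deposited ratios 76 among 176. Of the 101 called named genes, 22 were called with median centring, 84 without the dye term, 95 with processed signals and 68 in every fit with 1 array left out, and none changed sign in any setting tried. Among the named genes, signs changed only for those not called: with median centring Akr1b8 (0.16), Cpa1 (0.04) and Cyp3a2 (0.13), and in the joint fit Akr1b8 (0.39). When single arrays were left out, Akr1b8 ranged from -0.68 to 0.50, Cpa1 from -1.04 to 0.61, Cyp3a2 from -0.66 to 0.37, Sult2a1 from -0.34 to 1.14, A1bg from -1.17 to 0.55, Akr1b7 from -1.52 to 0.62 and Cyp2c12 from -1.87 to 0.27. The causes were not tested. No difference between the routes was called by limma in any fit. Signals near background limit the low-level genes.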
